A study of Homo sapiens with 8 samples.

Results

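Expression of 10 genes for S100 calcium-binding proteins was described in CAPAN-2 cells, an established line of human pancreatic adenocarcinoma, after knock-down of the receptor tyrosine kinase ErbB2 or of the membrane mucin MUC4. The members were S100P, S100A2, S100A4, S100A6, S100A8, S100A9, S100A10, S100A11, S100A14 and S100A16. They were all probes whose transcript accession mapped to one of these symbols, which gave 11 of 41000 probes on the arrays and 10 of 17240 symbols, with 2 probes for S100A11 and 1 for each of the others. All 11 probes passed the filter on dim spots in both experiments.

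The RNA groups were all from stable clones of CAPAN-2. ErbB2-KD clones carried an ErbB2 shRNA in a puromycin vector, and their control was a pool of 4 NT clones that carried the empty vector. MUC4-KD clones carried a retroviral MUC4 shRNA selected with G418, and their control was a pool of 4 Mock clones with the empty retroviral vector. Each experiment had 4 two-colour arrays (n = 4), each with a knockdown RNA in one channel and the control pool in the other, and the dyes were exchanged on 2 of the 4 arrays. The labels name a separate clone on each ErbB2-KD array (EV7, EV12, EV9 and EV18 on arrays 1 to 4), whereas the clones on the MUC4-KD arrays are given as 4 in the methods and are not named in the labels. The pool counts as 1 control sample, so no test below includes the spread between control clones.

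S100 proteins are small proteins with EF-hand motifs that pair into dimers and, on binding calcium, expose a surface that grips target proteins inside the cell. Several are also secreted and act on receptors such as RAGE, the product of AGER, and TLR4. In pancreatic adenocarcinoma, S100P is a well-known marker that is raised in the tumour cells, and S100A8 and S100A9, which form the heterodimer calprotectin, are best known from neutrophils and monocytes but are also made by stressed epithelia.

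Most of the family lies in 1 cluster. Of the members, 9 were on chromosome 1 and S100P was on chromosome 4. The promoters are shown for the 4 members whose ratio passed the test in MUC4-KD (below), as the 250 bases before the RefSeq start in the build GRCh38.p14. For S100A2, which has more than 1 listed start, the start with the most motif matches is shown. Capitals mark matches on either strand to TATAAA (the TATA box), TGACTCA (the AP-1 site), TGACGT (a short site for CREB-type factors) and CCAAT, motifs that were chosen after the sequences had been seen.
S100P (chr4:6693628-6693877, plus strand): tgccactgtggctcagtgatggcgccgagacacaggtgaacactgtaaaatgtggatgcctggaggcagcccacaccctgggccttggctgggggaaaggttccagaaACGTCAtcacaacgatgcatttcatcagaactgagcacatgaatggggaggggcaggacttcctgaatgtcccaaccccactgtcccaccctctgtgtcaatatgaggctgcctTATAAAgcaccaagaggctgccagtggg
S100A2 (chr1:153565845-153566094, minus strand): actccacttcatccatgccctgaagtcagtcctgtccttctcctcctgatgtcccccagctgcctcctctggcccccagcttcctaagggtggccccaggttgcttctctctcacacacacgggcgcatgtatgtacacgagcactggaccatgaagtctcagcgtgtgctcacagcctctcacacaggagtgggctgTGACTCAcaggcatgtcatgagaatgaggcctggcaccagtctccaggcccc
S100A9 (chr1:153357604-153357853, plus strand): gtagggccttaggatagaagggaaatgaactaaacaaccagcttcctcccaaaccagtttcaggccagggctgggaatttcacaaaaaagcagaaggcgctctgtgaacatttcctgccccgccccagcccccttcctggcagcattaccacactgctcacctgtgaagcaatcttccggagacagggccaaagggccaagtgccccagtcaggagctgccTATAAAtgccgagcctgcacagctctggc
S100A10 (chr1:151993860-151994109, minus strand): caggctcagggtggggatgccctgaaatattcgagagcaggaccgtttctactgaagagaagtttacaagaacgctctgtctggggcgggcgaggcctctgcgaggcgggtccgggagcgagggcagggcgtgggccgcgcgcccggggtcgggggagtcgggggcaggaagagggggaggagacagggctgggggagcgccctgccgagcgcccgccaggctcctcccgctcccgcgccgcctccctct

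S100P and S100A9 carried TATAAA at 28 and 29 bases before the start, as did S100A4 at 31 bases. The middle of the 3 listed starts of S100A8 also had one at 29 bases. TATAAA was thus found for 4 of 10 members, where a match at any listed start counts. By windows, it was in 5 of the 14 of the members, and in 10.7% of the 35116 promoter windows of the same length in the RefSeq table. S100P also held the CREB-type site, which was present in 7.1% of windows. S100A2 had a TGACTCA match, present in 4.2% of windows, and no TATAAA, and the window of S100A10 held none of the 4 motifs. S100A8 and S100A16 had windows with CCAAT, which was in 32% of windows. These matches are descriptions of letters and not evidence of binding.

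Between 56.7% and 74.2% of the probes of a channel passed the scanner's test against background, the median raw signal lay between 100 and 593, and no spot was saturated. None of the spots of the members was marked as an outlier. Epithelial markers (KRT7, KRT8, KRT18, KRT19, EPCAM, CDH1 and MUC1) were well above background in all 16 channels, as the label of the line would have it. The defining leukocyte markers PTPRC, ITGAM and FCGR3B were well above background in 1, 1 and 0 of 16 channels, although CD14, CD68 and CSF1R were in all 16, and of the fibroblast genes DCN and PDGFRB were in 0 channels, LUM in 1, the probes of COL1A2 in 0 and 2, those of COL3A1 in 0, 0 and 7, and THY1 in 16. The summed level of the 7 myeloid probes was 2143 to 4920 in ErbB2-KD and 2181 to 2495 in NT, and 2643 to 2789 in the MUC4-KD-labelled RNA and 2396 to 2628 in that labelled Mock.

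The labels were checked with the targeted genes. The first of 2 probes placed ERBB2 below 0 on every ErbB2-KD array, at -0.40 ± 0.12 (SD, n = 4), without passing the test (limma adjusted p = 0.145). The other lay at 0.04 but was dim, with a mean log2 level of 7.63 in ErbB2-KD and 7.59 in NT, beside 12.09 and 12.49 for the first. The paper reports loss of ErbB2 and of MUC4 in the respective clones by Western blot, and lower RNA of both by qRT-PCR. MUC4 went against its label: 2 of its 4 probes passed and were higher in the knockdown, at 1.84 ± 0.57 and 1.34 ± 0.84 (SD, n = 4, limma adjusted p = 0.00804 and 0.0355), above 0 on all 4 arrays, and the other probes lay at 0.27 and 0.41. The first lost its call without array 3, where MUC4 in MUC4-KD was at 1.71 (limma adjusted p = 0.0735) and 0.615% of all probes passed. The direction in which the study lists its genes for this experiment is also the opposite of the labelled one. All values of this experiment are therefore written as MUC4-KD-labelled RNA over Mock-labelled RNA, and every ratio of this experiment changes sign if the labels are exchanged. Differences between the experiments then take other values, which are given beside them.

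The spread of each channel over the arrays was also measured. In the ErbB2-KD arrays the channel of the knockdown varied more over the 4 arrays than the channel of the NT pool for 81.1% of 23817 probes and for all 11 S100 probes. In the MUC4-KD arrays the relation was turned: the channel labelled Mock varied more for 73% of 24992 probes and for 9 of 11 S100 probes. The median SD of the log2 level over all probes was 0.35 in ErbB2-KD and 0.17 in NT, and 0.15 in the MUC4-KD-labelled RNA and 0.25 in that labelled Mock. Whether the channels of the MUC4-KD arrays were exchanged was not tested.

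**Figure D1:**
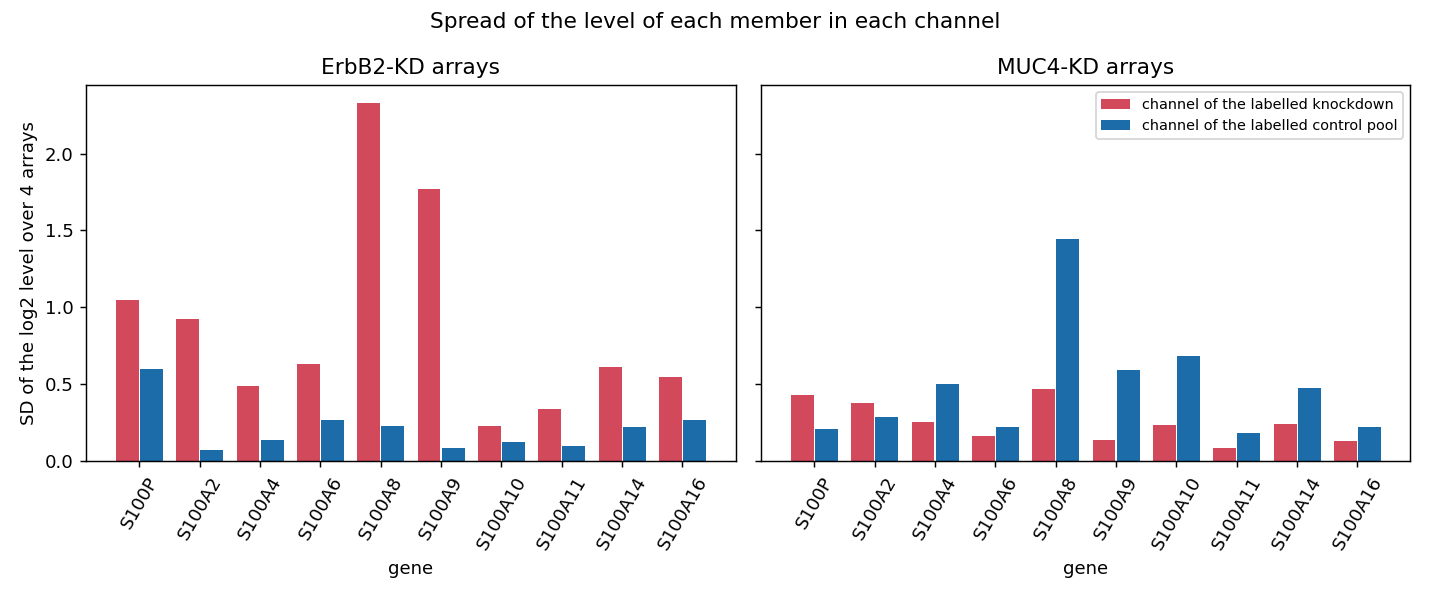
SD of the normalized log2 level over the 4 arrays of an experiment, for the brightest probe of each member, in the channel of the labelled knockdown (red) and of the labelled control pool (blue). On the ErbB2-KD arrays the knockdown channel is the wider for every member, with S100A8 at 2.33 against 0.22, and on the MUC4-KD arrays the channel labelled Mock is the wider for 8 of the 10, with S100A8 at 1.45 against 0.47.

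In MUC4-KD, S100P fell far and S100A2, S100A9 and S100A10 rose, as labelled. These 4 of 11 member probes passed the adjusted threshold of limma, 3 higher and 1 lower, where 20.5% of all 25047 probes tested did (12% higher and 8.48% lower). At an unadjusted p under 0.05 there were 7 of 11, where 40.2% of all probes passed. The median log2 ratio over the 11 probes was 0.51, beside 0.01 over all probes tested. As these are bulk RNA samples, fewer cells that express a gene and less RNA per cell cannot be told apart.

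S100P, whose protein binds ezrin and RAGE, had log2 ratios of -4.53, -4.25, -4.42 and -3.73 on arrays 1 to 4. All 4 arrays lay far below 0. The mean was -4.24 ± 0.35 (SD, n = 4), which is 18.8-fold lower in the MUC4-KD-labelled RNA (limma adjusted p = 0.000988), and it was the lowest mean of all 25047 probes tested. The value was of the same size in both dye orientations, at -4.08 on the arrays with the MUC4-KD-labelled RNA in Cy5 and -4.39 on those with it in Cy3. Leaving out each array in turn gave -4.40 to -4.14, all past the threshold, and the scanner's own log ratios gave -5.13 for S100P in MUC4-KD. With median centring in place of loess the mean of -4.13 lost the adjusted call (adjusted p = 0.244), when 0.00399% of all probes passed.

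The channels showed which RNA stood apart for S100P. Its log2 level in the Mock-labelled RNA was 12.46, 12.01, 12.34 and 12.45 on arrays 1 to 4. It was 7.92, 7.76, 7.92 and 8.71 in the MUC4-KD-labelled RNA, 7.09 to 8.44 in the NT pool and 6.70 to 9.23 in ErbB2-KD. The RNA labelled Mock was thus above every other RNA on all arrays. The means of the other RNAs, 8.08 ± 0.43 (labelled MUC4-KD), 7.96 ± 0.60 (NT) and 7.95 ± 1.04 (ErbB2-KD), differed by less than their SD (n = 4 arrays each). A control pool is 1 RNA read on 4 arrays, so its SD is not a spread between clones. Levels set across the experiments rest on a normalization between arrays.

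**Figure D2:**
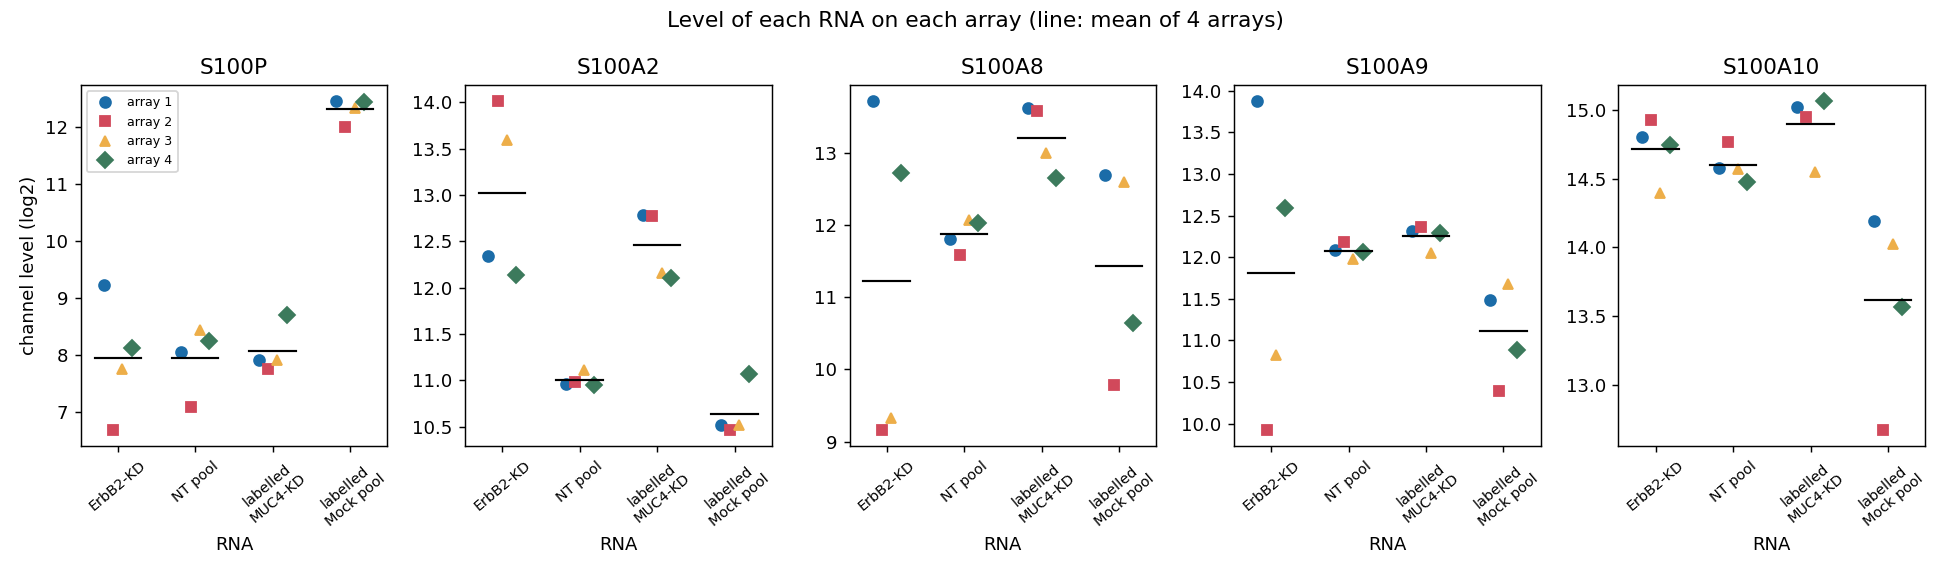
Normalized log2 level of 5 members in the 4 kinds of RNA on each of the 4 arrays of an experiment, with a line at the mean; each gene has its own vertical axis. S100P is near 12.32 in the Mock-labelled RNA and near 8 in all others, and the levels of S100A8 range from 9.17 to 13.71 in ErbB2-KD and from 9.79 to 12.69 in the Mock-labelled RNA.

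S100A2, a nuclear S100 protein that binds p53 and is typical of basal epithelial cells, had log2 ratios of 2.27, 2.31, 1.65 and 1.04 in MUC4-KD. Every array was above 0. The mean was 1.82 ± 0.60 (SD, n = 4, limma adjusted p = 0.00897). The levels did not overlap, being 12.11 to 12.79 in the MUC4-KD-labelled RNA and 10.47 to 11.07 in that labelled Mock. Without array 3, S100A2 in MUC4-KD was at 1.87 and no longer passed the threshold (adjusted p = 0.0746). Only 0.615% of all probes then passed, beside 20.5% with all 4 arrays, so the loss says little of this gene.

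S100A8, S100A9 and S100A10 shared an order of the arrays. The log2 ratio of S100A8 was 0.93, 3.79, 0.40 and 2.02 on arrays 1 to 4, that of S100A9 was 0.83, 1.97, 0.37 and 1.41, and that of S100A10 was 0.83, 2.28, 0.52 and 1.497. In each of the 3 genes array 2 was the highest, then array 4, array 1 and array 3, and all 12 values were above 0. S100A9 passed the threshold at 1.15 ± 0.70 (SD, n = 4, limma adjusted p = 0.0347) and so did S100A10 at 1.28 ± 0.78 (SD, n = 4, limma adjusted p = 0.0337), whereas S100A8, with the larger mean of 1.78 ± 1.496, did not (limma adjusted p = 0.0611). S100A10, also called p11, is the member that does not respond to calcium and holds annexin A2 at the membrane.

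Neither of these 2 calls was held by every set of 3 arrays. Without array 1, 2 or 3 only 2.33%, 3.84% and 0.615% of all probes passed, so the losses say little of these genes. S100A9 in MUC4-KD was at 1.25, 0.87 and 1.40 (limma adjusted p = 0.0998, 0.0967 and 0.0841) without array 1, 2 or 3. S100A10 in MUC4-KD was at 1.43, 0.95 and 1.54 (limma adjusted p = 0.0889, 0.0797 and 0.0965) without the same arrays. With the slide as a random block, which uses 1 fit over all 8 arrays, S100A10 passed (adjusted p = 0.00806) and S100A9 did not (adjusted p = 0.151).

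The split of arrays 2 and 4 from arrays 1 and 3 was also present in the levels of the channel labelled Mock. The log2 level of S100A8 there was 12.69, 9.79, 12.60 and 10.64 on arrays 1 to 4, and the MUC4-KD-labelled RNA was at 13.61, 13.57, 12.997 and 12.65. The arrays 1 and 3 were close to each other and far above arrays 2 and 4 in the labelled Mock channel, although the control is given as 1 pool. S100A9 in the same channel was at 11.49, 10.39, 11.68 and 10.88, and S100A10 at 14.19, 12.67, 14.03 and 13.57. Both were again higher on arrays 1 and 3 than on arrays 2 and 4, and their SD of 0.59 and 0.68 compares with 0.14 and 0.24 in the MUC4-KD-labelled RNA. An order with arrays 2 and 4 both above arrays 1 and 3 was found in the ratios of 4 of 10 members (S100P, S100A8, S100A9 and S100A10) and of 19.7% of all probes tested. The order was picked after S100A8, S100A9 and S100A10 had been seen, so the count is a description. The level of S100P in the labelled Mock channel did not split this way, at 12.46, 12.01, 12.34 and 12.45 on arrays 1 to 4.

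The other members did not pass the test in MUC4-KD. S100A4, which binds non-muscle myosin heavy chain MYH9 and is linked to metastasis, was at 0.80, 1.77, 0.39 and 0.20, averaging 0.79 ± 0.70 (SD, n = 4, limma adjusted p = 0.0790). Without array 4, S100A4 in MUC4-KD passed at 0.99 (limma adjusted p = 0.0395), when 36.1% of all probes did. S100A16 was at 0.58, 0.86, 0.03 and 0.56 (mean 0.51 ± 0.35, SD, n = 4, limma adjusted p = 0.0651). Every array was above 0 in both genes. S100A6, also called calcyclin, was at -0.14 to 0.60 (mean 0.20 ± 0.32, limma adjusted p = 0.354), and S100A14 spanned 0 from -0.68 to 0.75 (mean 0.10 ± 0.60, limma adjusted p = 0.781). S100A11, an annexin A1 partner, was at -0.00 ± 0.16 on the brighter probe and 0.05 ± 0.10 on the other, with 95% intervals of -0.28 to 0.27 and -0.21 to 0.30, the narrowest among the members.

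**Figure D3:**
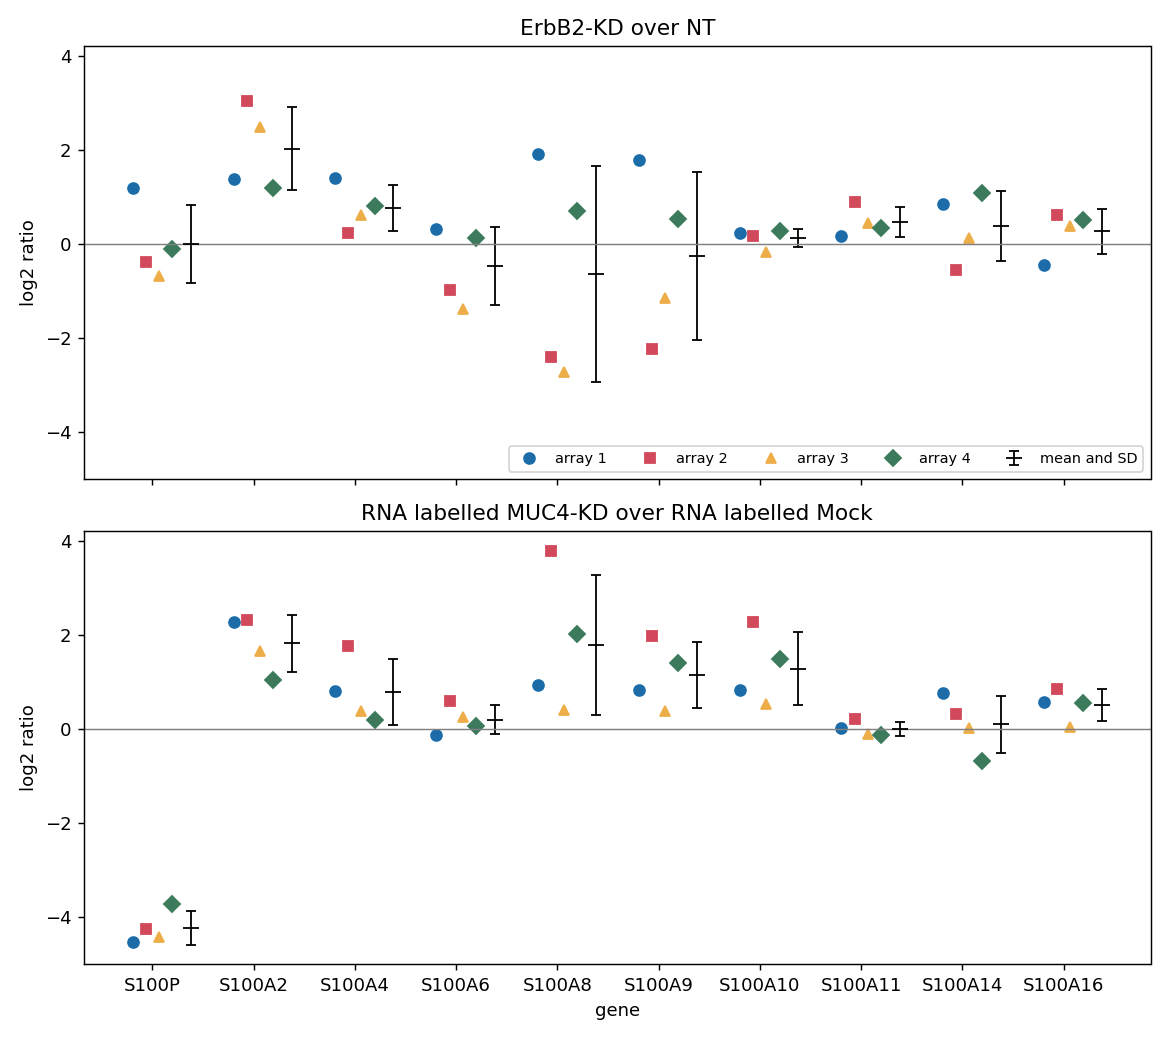
Log2 ratio of each member on each of the 4 arrays of ErbB2-KD (top) and MUC4-KD as labelled (bottom), with the mean and SD to the right of the points. In MUC4-KD the 4 S100P points lie between -4.53 and -3.73, and in ErbB2-KD arrays 1 and 4 lie above arrays 2 and 3 for S100A8 and S100A9.

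In ErbB2-KD no S100 member passed the adjusted threshold, and for S100P, S100A6, S100A8, S100A9, S100A10, S100A14 and S100A16 the SD between clones was larger than the distance of the mean from 0. The count was 0 of 11 member probes (limma), where 1.43% of all 23869 probes tested passed (0.549% higher and 0.884% lower). At an unadjusted p under 0.05 there were 4 of 11, the probe of S100A2, that of S100A4 and both of S100A11, all above 0, where 18% of all probes passed and 7.47% passed with a higher value. The median log2 ratio of the 11 probes was 0.26, beside -0.01 over all probes tested. The methods' t-test passed 0 of 11 after adjustment, as it did 0% of all probes, and 1 of 11, S100A2, at an unadjusted p under 0.05.

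S100A2 came nearest to the threshold, with log2 ratios of 1.38, 3.04, 2.49 and 1.19 in the clones EV7, EV12, EV9 and EV18. Its level was 12.14 to 14.01 in ErbB2-KD and 10.95 to 11.11 over the 4 readings of the 1 NT pool. These ranges did not overlap, and the ratio of every clone was above 0. The mean was 2.02 ± 0.89 (SD, n = 4, 95% interval 1.22 to 2.82, limma adjusted p = 0.0519), and it ranked 42 from the highest of the 23869 means. S100A2 in ErbB2-KD passed under 5 of the alternatives of processing, with an adjusted p of 0.0402 with a normexp offset of 10, 0.0414 with the scanner's own log ratios, 0.0293 with an intensity trend, 0.00847 with 1 fit over all 8 arrays and 0.00893 with the slide as a block. In these 5 settings 1.56%, 2.04%, 2.16%, 4.83% and 4.67% of all probes passed, in the same order, beside 1.43% in the main fit. S100A2 did not pass when any clone was left out (1.69 to 2.30, adjusted p = 0.0553 to 0.274), when 0% to 1.88% of all probes passed.

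S100A8 and S100A9 differed widely between the ErbB2-KD clones. The log2 ratio of S100A8 was 1.90, -2.41, -2.74 and 0.69, and that of S100A9 was 1.79, -2.25, -1.15 and 0.53, in EV7, EV12, EV9 and EV18. In both genes EV7 and EV18 were above the NT pool and EV12 and EV9 were below it. The means, -0.64 ± 2.29 and -0.27 ± 1.79 (SD, n = 4, limma adjusted p = 0.744 and 0.873), therefore describe none of the clones, and the SD of S100A9 was larger than that of 99.8% of the probes tested and that of S100A8 larger still. The NT pool itself was steady, with S100A8 at 11.58 to 12.06 and S100A9 at 11.98 to 12.18. With only 1 array for each clone, the spread between clones and that between arrays of 1 clone cannot be told apart.

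The same pair of clones was the higher one for most members. S100P was at 1.18, -0.40, -0.68 and -0.12 in EV7, EV12, EV9 and EV18. S100A6 was at 0.32, -0.99, -1.39 and 0.11, S100A14 at 0.84, -0.56, 0.13 and 1.07, and S100A4 at 1.40, 0.23, 0.60 and 0.81. In 7 of 10 members (these 4, S100A8, S100A9 and S100A10) both EV7 and EV18 were above both EV12 and EV9, and in 2 (S100A2 and S100A11) both were below, where these orders held for 18.1% and 15% of all probes tested. The order was picked after the values had been seen, so it is a description. EV7 and EV12 were in Cy5 and EV9 and EV18 in Cy3, so each side of the order held 1 array of each dye.

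The means of these members did not pass the test. S100P was at -0.01 ± 0.82 (SD, n = 4, 95% interval -0.75 to 0.74, limma adjusted p = 0.994) and S100P in ErbB2-KD changed sign when array 2, 3 or 4 was left out (0.12, 0.22 and 0.03). It was well above background in 3 of 4 ErbB2-KD channels, and the scanner's own log ratios gave -0.26 (limma adjusted p = 0.804). For S100P, a gene selected from its arrays, the paper reports down-regulation in ErbB2-KD cells by qRT-PCR, which it presents as matching its array data. S100P was dim in this experiment, at a log2 level of 7.09 to 8.44 in NT and 6.70 to 9.23 in ErbB2-KD, beside 12.01 to 12.46 in the Mock-labelled RNA. The mean found here does not show the reported fall, and the cause was not tested. S100A4 was at 0.76 ± 0.49 and above 0 in every clone (limma adjusted p = 0.134), S100A6 at -0.49 ± 0.83 (limma adjusted p = 0.471) and S100A14 at 0.37 ± 0.74 (limma adjusted p = 0.551). S100A10 was the steadiest, at 0.22, 0.16, -0.17 and 0.27 averaging 0.12 ± 0.20 (SD, n = 4, limma adjusted p = 0.677), and its 95% interval reached from -0.18 to 0.42. S100A16 was below 0 in EV7 only, at -0.45, 0.60, 0.38 and 0.51 (mean 0.26 ± 0.48, limma adjusted p = 0.558).

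The 2 probes of S100A11 gave like values in ErbB2-KD. The brighter was at 0.16, 0.90, 0.43 and 0.34, averaging 0.46 ± 0.31 (SD, n = 4, limma adjusted p = 0.195). The other was at 0.34, 1.04, 0.20 and 0.25, averaging 0.46 ± 0.39 (SD, n = 4, limma adjusted p = 0.243). EV12 was the highest on both probes and all 8 values were above 0.

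With the ratios as labelled, S100P alone among the members passed the test of the difference between the experiments, and with the MUC4-KD labels exchanged 4 members passed. The contrast of MUC4-KD as labelled minus ErbB2-KD, fitted by limma over all 8 arrays, was -4.23 (SE 0.38, adjusted p = 0.00136) for S100P, and 1 of 11 member probes passed, where 9.91% of all 25835 probes did (6.49% higher and 3.41% lower). At an unadjusted p under 0.05 there were 3 of 11, S100P, S100A10 (higher) and S100A11 (lower), where 28.5% of all probes passed and 16.8% passed with a higher value. It was -3.34, -4.50 and -4.36 within the 3 slides, each of which held arrays of both experiments. The difference of S100P was -4.22 with the slide as a block (adjusted p = 0.00127). It lost its call with median centring, at -4.02 (adjusted p = 0.0724), when 0.453% of all probes passed. The experiments have different control pools, and so share no control RNA.

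Which other members passed depended on the labels of MUC4-KD. With its ratios turned, 4 of 11 member probes passed, where 17.2% of all probes did. S100P was then at 4.24 (SE 0.38, limma adjusted p = 0.000644) and S100A2 at -3.84 (SE 0.45, limma adjusted p = 0.00159). S100A4 was at -1.55 and S100A10 at -1.40 (limma adjusted p = 0.0226 and 0.026). S100P passed in either direction, while S100A2, S100A4 and S100A10 passed in the exchanged direction and not in the labelled one.

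As labelled, S100A10 had the difference next nearest to the threshold, 1.16 (95% interval 0.39 to 1.94, limma adjusted p = 0.063), with 1.34, 2.25 and 0.41 within the slides. The difference of S100A8 was 2.42 and that of S100A9 was 1.42, with wide 95% intervals of -0.07 to 4.91 and -0.34 to 3.17 (limma adjusted p = 0.186 and 0.26). Within the slides they were 4.43, 4.21 and -0.03 for S100A8 and 3.66, 1.66 and 0.07 for S100A9, so that on slide 3 the values of both genes lay near 0. S100A2, at 1.82 and 2.02 as labelled, had a difference of -0.21 (-3.84 with the labels exchanged), whose 95% interval as labelled of -1.21 to 0.80 allows a change of more than 2-fold (limma adjusted p = 0.793), and it was -1.996, 0.37 and 0.78 within the slides. S100A4 had a difference of 0.03 (95% interval -0.79 to 0.85), and the other 4 members lay between -0.46 and 0.69.

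**Figure D4:**
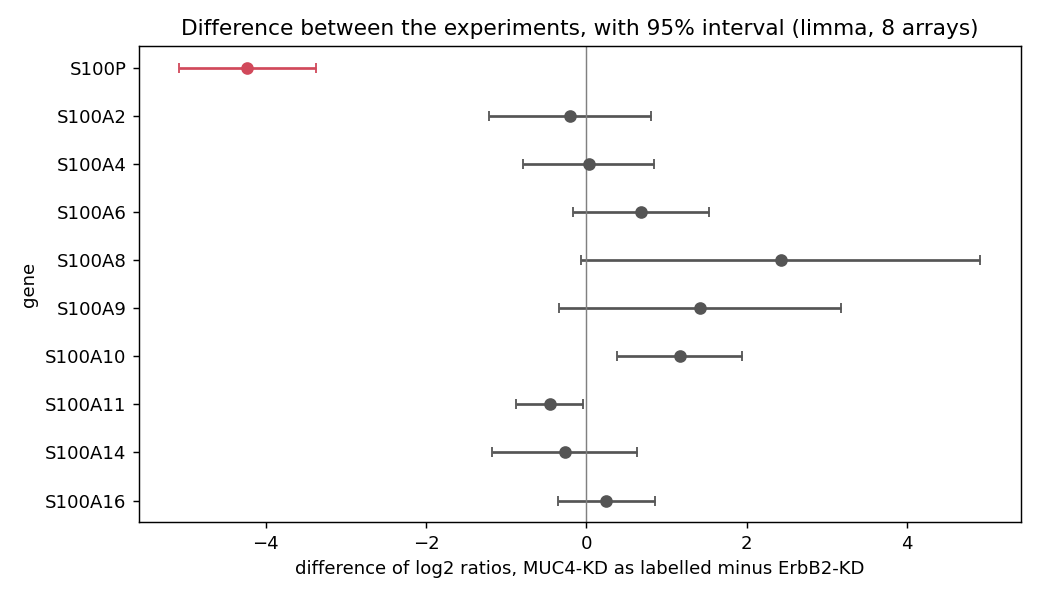
Difference of the log2 ratios, MUC4-KD as labelled minus ErbB2-KD, for the brightest probe of each member, with its 95% interval from limma over 8 arrays; red marks an adjusted p under 0.05. S100P lies at -4.23 with an interval of -5.08 to -3.38, and the intervals of S100A8 and S100A9 are the widest.

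Genes whose ratios over the 8 arrays were nearest to those of S100P were named by the mean absolute difference of log2 ratios among 11655 genes. They were BEX2 (0.742), IFIT3 (0.799), MX2 (0.839), GDF15 (0.852) and IFIT1 (0.865). As they were picked on these same ratios, low values in MUC4-KD follow from the choice. Their p-values are descriptions and not separate evidence. BEX2, of the brain-expressed X-linked family, was at -3.44, -4.02, -3.66 and -3.51 in MUC4-KD and at 1.62, -2.57, -1.65 and -0.08 in ErbB2-KD. Like S100P it was below 0 in every array of MUC4-KD and above 0 in EV7 alone. IFIT3, MX2 and IFIT1, which are interferon-induced genes, had means of -3.22, -3.99 and -3.30 in MUC4-KD (limma adjusted p = 0.0292, 0.000988 and 0.00232) and of -0.39, -1.44 and -0.36 in ErbB2-KD (limma adjusted p = 0.346, 0.105 and 0.361). GDF15, a stress-induced cytokine, was at -3.06 in MUC4-KD (limma adjusted p = 0.00137) and -0.15 in ErbB2-KD (limma adjusted p = 0.9). Of the 5 genes, IFIT3 in MUC4-KD alone lost its call when array 1, 2 or 3 was left out (-2.75, -3.09 and -2.88, limma adjusted p = 0.106, 0.105 and 0.157). Without these arrays 2.33%, 3.84% and 0.615% of all probes passed. IFIT3 was near 0 on array 4 of MUC4-KD, at -0.39.

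Of the other 10 S100 genes on the arrays, few were bright enough to test. In ErbB2-KD 0 of 3 tested probes passed, and in MUC4-KD 1 of 4 did, where 1.43% and 20.5% of all probes passed. S100A3, which is found in hair cuticle, was at 1.35, 1.68, 0.87 and 0.29 in MUC4-KD (mean 1.05 ± 0.60, SD, n = 4, limma adjusted p = 0.0328) and at -0.33 to 0.07 in ErbB2-KD, with a difference of 1.17 (limma adjusted p = 0.0336). The call of S100A3 in MUC4-KD was lost without array 1, 2 or 3 (0.94, 0.84 and 1.11, limma adjusted p = 0.13, 0.104 and 0.143), when 2.33%, 3.84% and 0.615% of all probes passed. The difference of S100A3 passed only without array 4 of MUC4-KD when an array was left out, where 19.3% of all probes passed. It was -0.92 with the labels exchanged (limma adjusted p = 0.0504). S100A7, psoriasin, did not pass, but its arrays ran like those of S100A8. It was at 2.84, -0.34, -0.69 and 1.82 in ErbB2-KD, again with EV7 and EV18 above 0 and EV12 and EV9 below, and at -0.17, 3.06, -0.09 and 0.95 in MUC4-KD, with array 2 the highest and array 4 next. S100A12 and S100A13 did not pass in MUC4-KD, at 0.46 and 0.24.

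Housekeeping genes next to the S100 cluster on chromosome 1 had mean ratios near 0. Of 11 housekeeping neighbours, such as ILF2 and RPS27, 0 of 22 tested probes passed in ErbB2-KD and 0 of 23 in MUC4-KD (limma, 1 probe in each at an unadjusted p under 0.05). Their mean log2 ratios lay between -0.25 and 0.34 and between -0.30 and 0.29. Many of these probes were of TPM3, and single arrays lay further from 0. The TPM3 probe with the widest spread was at -0.79, -0.84, 0.05 and 1.75 on arrays 1 to 4 of MUC4-KD (SD 1.21). The methods' t-test also passed 0 in both. Among epidermal differentiation genes of the same cluster, 0 of 2 tested probes passed in ErbB2-KD and 1 of 6 in MUC4-KD, SPRR2D of the cornified envelope at -0.60 (limma adjusted p = 0.0455). It was well above background in 3 of 4 MUC4-KD-labelled channels and all Mock-labelled ones, so that it entered the test through the group where it was high, and the scanner's log ratios gave -2.13. SPRR2D in MUC4-KD lost its call without array 1, 2 or 3 (-0.62, -0.46 and -0.57, limma adjusted p = 0.151, 0.142 and 0.188), when 2.33%, 3.84% and 0.615% of all probes passed.

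The receptors and binding partners of S100 proteins, a list of 16 genes with 33 probes, showed other genes than the S100 members moving in ErbB2-KD. There 4 of 27 tested probes passed, 2 higher and 2 lower, where 1.43% of all probes did. EZR, the partner of S100P that links membrane and actin, was higher on both probes, at 1.39 and 1.09 (limma adjusted p = 0.0228 and 0.0387). MYH9, the myosin bound by S100A4, was lower on both, at -1.51 and -1.27 (limma adjusted p = 0.0106 and 0.0472). On the brighter probes each clone lay on the same side, EZR at 1.00 to 1.78 and MYH9 at -1.65 to -1.37. The 4 calls fell to 0 without EV7, EV9 or EV18 (arrays 1, 3 and 4), but then 0%, 0.0122% and 0.125% of all probes passed, so that the loss says nothing of these genes, and EZR in ErbB2-KD lay at 1.26 to 1.52 and MYH9 in ErbB2-KD at -1.56 to -1.47.

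In MUC4-KD 13 of 29 tested partner probes passed, 12 higher and 1 lower, where 20.5% of all probes did (12% higher and 8.48% lower), with a median log2 ratio of 0.49 beside 0.01 over all probes. IQGAP1, a scaffold that binds S100P, was higher at 0.97 (limma adjusted p = 0.0117), as was SUGT1, a partner of S100A6, at 0.94 and 0.95 (limma adjusted p = 0.00792 and 0.0401). The 1 lower probe, of the calcium channel TRPV6, was well above background in 3 of 4 MUC4-KD-labelled channels and all Mock-labelled ones, so that it entered the test through the group where it was high, at -0.95 (TRPV6 in MUC4-KD was at -2.84 with the scanner's log ratios). AHNAK, a large scaffold of the same complex, had probes that disagreed: the brightest did not pass at -0.50 (limma adjusted p = 0.163), while another passed at 2.20 (limma adjusted p = 0.00371). A further AHNAK probe, at 0.95, was well above background in all MUC4-KD-labelled channels and 3 of 4 Mock-labelled ones, and so entered the test through the group where it was high. None of the 3 tested probes of ANXA2, the gene of annexin A2, passed, the largest being 0.43 ± 0.98 (SD, n = 4, limma adjusted p = 0.402). The count of 13 fell to 1, 3 and 1 without array 1, 2 or 3, when 2.33%, 3.84% and 0.615% of all probes passed. For the difference between the experiments 5 of 29 probes passed (9.91% of all probes), all with a higher ratio in MUC4-KD as labelled, among them MYH9 at 2.24 and 1.55 (limma adjusted p = 0.000196 and 0.00836). With the MUC4-KD labels exchanged 12 of 29 passed (17.2% of all probes), and MYH9 still did, at 0.78 and 0.99 (limma adjusted p = 0.00743 and 0.0248).

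TLR4, the receptor of S100A8 and S100A9, was not bright enough to be tested on any of its 3 probes. AGER, the gene of RAGE, did not pass in either experiment (limma adjusted p = 0.165 in ErbB2-KD and 0.179 in MUC4-KD), although its difference did at 0.65 (limma adjusted p = 0.0397) as labelled. With the labels exchanged that difference was 0.14 and did not pass (limma adjusted p = 0.577).

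Seen against the NT pool, most members lay nearer to the MUC4-KD-labelled RNA, whereas the probes as a whole showed no such lean. Whether the members differ in this from the other probes was not tested. The mean level in NT was nearer to that in the MUC4-KD-labelled RNA than to that labelled Mock for 7 of 10 members, among them S100P and S100A9, where this held for 46.4% of 22995 probes tested in both experiments. The median absolute difference over those probes was 0.32 to the MUC4-KD-labelled RNA and 0.29 to that labelled Mock.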

How the data were processed

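The authors scanned 8 Agilent two-colour arrays of 4 ErbB2-KD and 4 MUC4-KD samples and deposited the output of Feature Extraction 10.5 (10.5.1.1 per the file headers), which holds the median intensity of each spot and of its background and a log10 ratio of Cy5 over Cy3. A deposited table holds the same log10 ratios turned to labelled knockdown over control, and the deposited flags for outlier, saturation and background were also used. For normalization and filtering the methods name GeneSpring, whose output was not used here.

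From the intensities, the background was removed with normexp (offset 50), and each array was normalized by loess in R 4.3.3 with limma 3.58.1. Control spots and outlier spots were left out and had no weight in the loess curve. The 43376 spots were averaged to 41000 probes, of which 25398 received a symbol through the RefSeq gene table. The design had foreseen raw spot intensities, and the deposited medians were used. Tests took in probes that the scanner called above background in 1 channel of all 4 arrays. lmFit and eBayes then set the average log2 ratio against 0, and the difference over all 8 arrays, with Benjamini-Hochberg adjustment over all probes and a threshold of 0.05. The number of arrays limits the precision, and with 4 arrays the smallest p of an exact sign-flip test is 0.125. Channel levels were made comparable between arrays by Aquantile normalization and summed as linear values. Promoters were read from RefSeq windows.

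The value of a gene is that of its brightest probe. Of the other lists, genes past the adjusted threshold were named (at most the 4 largest changes of a list in an experiment) or those in counts of 5 or fewer, with the 5 genes nearest to S100P; TLR4, AGER, ANXA2 and S100A7 were named after their values had been seen. The members and lists were chosen with earlier results of these data known. The steps were tested on simulated data. Alternatives were an offset of 10, the scanner's log ratios, median centring, other filters, a dye term, slide and replicate blocks, an intensity trend, 1 fit over all arrays, an ordinary t-test, averaged MUC4-KD pairs, the mean of probes, leaving out each array and, chosen after seeing the data, other spots in the loess curve and the exchange of the MUC4-KD labels. Replicate numbers did not pair the arrays of the experiments.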

Additional observations from a re-analysis of the deposited data

Results flagged for a closer look

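S100P had a log2 ratio of -4.24 in MUC4-KD as labelled and of -0.01 in ErbB2-KD. It stands here because the test of the difference itself passed the threshold, at -4.23 (limma over 8 arrays, adjusted p = 0.00136), with S100P on every array of MUC4-KD below every array of ErbB2-KD. With the MUC4-KD labels exchanged the difference was 4.24 (limma adjusted p = 0.000644). No array stood apart from the other 3 for a member by Dixon's test at its 95% critical value; the nearest was EV12 on the second S100A11 probe, with a gap of 0.828 of the range.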

How the results depend on the processing

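As labelled, the S100P ratio in MUC4-KD kept its direction in every alternative of processing and passed the threshold in all but median centring (-4.13, adjusted p = 0.244). Without 1 array it was -4.40 to -4.14. The exchange of the MUC4-KD labels turns its sign. The count of 4 member probes in MUC4-KD became 0 with median centring, 2 with no filter on dim probes, 1 with an ordinary t-test, 3 with averaged pairs and 6 with a dye term, where 0.00399%, 7.15%, 0.423%, 14.4% and 26.9% of all probes passed. Without 1 array it was 1 to 5, from 1 without array 3 (0.615% of all probes) to 5 without array 4 (36.1%). The count of 0 in ErbB2-KD became 1 (S100A2) with an offset of 10, the scanner's log ratios, an intensity trend, 1 fit over all arrays and the slide as a block. In these settings 1.56%, 2.04%, 2.16%, 4.83% and 4.67% of all probes passed, beside 1.43% in the main fit. The count stayed 0 when any 1 array was left out, when 0% to 1.88% of all probes passed. The count of 1 for the difference became 0 with median centring (0.453% of all probes) and 4 with the MUC4-KD labels exchanged (17.2%), an alternative chosen after seeing the data. The cause was not tested. The S100P ratio in ErbB2-KD was -0.40 to 0.22 without 1 array, and with the filter in both channels it had no value, since 1 channel was too dim.

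Apart from the exchange of labels, the remaining changes of sign were all in values that did not pass, except AHNAK with the mean of its probes. S100A11 in MUC4-KD was 0.0093 with the scanner's log ratios, 0.21 with median centring, 0.023 with the mean of its probes, and 0.0022 and 0.0021 with control spots, or control and outlier spots, kept in the loess curve (both chosen after seeing the data). Without 1 array, S100A11 in MUC4-KD was -0.071 to 0.043, S100A9 in ErbB2-KD -0.96 to 0.39, S100A8 in ErbB2-KD -1.49 to 0.060, S100A14 in MUC4-KD -0.12 to 0.36, GDF15 in ErbB2-KD -0.62 to 0.38, SUGT1 in ErbB2-KD -0.074 to 0.29 and ERBB2 in MUC4-KD -0.47 to 0.016. Likewise the difference of S100A2 was -0.48 to 0.13, the difference of S100A4 -0.30 to 0.24, the difference of ERBB2 -0.064 to 0.42 and the difference of AHNAK -0.47 to 0.015. With the mean of its probes AHNAK in MUC4-KD was 0.75 and the difference of AHNAK 0.87, both past the threshold.

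With the MUC4-KD labels exchanged the difference of S100P was 4.24, the difference of S100A4 -1.55, the difference of S100A8 -1.14, the difference of S100A9 -0.87, the difference of S100A10 -1.40, the difference of S100A16 -0.77, the difference of MUC4 -0.84, the difference of S100A3 -0.92, the difference of AHNAK 0.77, the difference of IQGAP1 -1.42, the difference of SUGT1 -1.06, the difference of TRPV6 1.18, the difference of SPRR2D 0.033, the difference of KRT19 -1.55, the difference of BEX2 4.33, the difference of IFIT3 3.62, the difference of MX2 5.43, the difference of GDF15 3.21 and the difference of IFIT1 3.66, all of the opposite sign to the labelled values.

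Replicate numbers did not pair the arrays: the deviations of arrays with the same number correlated at -0.24 to -0.05 and 0 of 8 arrays correlated best with its own number. With the replicate number as a block the difference of S100P, -4.23, passed (adjusted p = 0.0215), the count of members stayed 1, and 2.26% of all probes passed.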
